A study of Mus musculus with 11 samples.

Results

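Notch signalling passes between neighbouring cells. Its members here are the 10 genes for the Notch receptors (Notch1, Notch2, Notch3 and Notch4), their Delta ligands (Dll1, Dll3 and Dll4) and Jagged ligands (Jag1 and Jag2), and the nuclear mediator Rbpj. They were chosen by gene symbol, and each had 1 of the 21881 windows of 1000 bp in a deposited table of promoter read counts for ST18, a MYT1-family transcription factor with zinc fingers. A ligand on one cell binds a receptor on the next, the receptor is cut by an ADAM protease and then by γ-secretase, and the freed intracellular domain joins the DNA-binding protein RBPJ to switch on Hes and Hey genes. In the embryonic cortex this pathway keeps radial glia in the progenitor state, and differentiating cells present Delta ligands to their neighbours.

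The series holds 11 mouse samples. The counts come from 2 chromatin immunoprecipitation (ChIP) samples against an HA tag and from 1 genomic DNA input, all from in vitro cells labelled TN and described only as brain cells; no genotype, strain or age is given for these cells. The table has 1 ST18 column and 1 input column, so no value has a replicate, and whether the ST18 column is either ChIP sample or both pooled is not stated in the sources used here. The input sample carries HA ChIP as its molecule label but input as its title and description, and the latter was followed. The other 8 samples are RNA from sorted cortical cells electroporated at E12.5 and collected at E16.5, of which 4 had ST18 knocked down and 4 were controls; they were not analysed here. Read counts of chromatin give no expression level, so the labelled cell type could not be checked against markers.

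The promoters of 4 members are printed first, since the results turn on the highest receptor (Notch4), the highest ligand (Jag1), the lowest member (Rbpj) and the only member with the core site of the MYT1 family (Notch2). Each is the 250 bases before a RefSeq start, 5′ to 3′ on the strand of the gene, in build GRCm38.p6. The counts were made on mm9, and where a counted window lies around the start is not given in the sources used here, so the sequences show the promoters and not the exact counted bases. Capitals mark an E-box (CANNTG, a site of proneural and Hes-related factors) in Notch4 and Jag1, AAGTTT (the MYT1 family core) in Notch2, and TGGGAA (the RBPJ core) in Rbpj, each on either strand. Only the named motif is marked in each sequence. The printed Rbpj sequence also holds 2 E-boxes, left in lower case.
Notch4, chr17:34564045-34564294, + strand: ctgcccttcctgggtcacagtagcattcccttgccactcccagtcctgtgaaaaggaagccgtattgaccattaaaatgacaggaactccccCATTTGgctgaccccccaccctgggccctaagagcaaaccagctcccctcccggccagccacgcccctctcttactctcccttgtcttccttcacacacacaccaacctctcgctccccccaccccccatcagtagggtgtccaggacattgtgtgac
Jag1, chr2:137116521-137116770, - strand: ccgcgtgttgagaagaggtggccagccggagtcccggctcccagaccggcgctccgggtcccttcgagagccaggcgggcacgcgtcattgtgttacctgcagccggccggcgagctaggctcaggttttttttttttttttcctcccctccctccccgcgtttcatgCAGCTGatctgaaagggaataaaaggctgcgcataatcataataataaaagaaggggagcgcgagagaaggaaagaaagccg
Notch2, chr3:98013288-98013537, + strand: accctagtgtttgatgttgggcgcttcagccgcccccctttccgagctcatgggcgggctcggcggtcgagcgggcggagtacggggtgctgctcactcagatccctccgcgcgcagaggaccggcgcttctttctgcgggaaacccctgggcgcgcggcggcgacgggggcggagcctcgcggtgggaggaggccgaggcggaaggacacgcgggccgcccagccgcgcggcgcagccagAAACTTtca
Rbpj, chr5:53590096-53590345, + strand: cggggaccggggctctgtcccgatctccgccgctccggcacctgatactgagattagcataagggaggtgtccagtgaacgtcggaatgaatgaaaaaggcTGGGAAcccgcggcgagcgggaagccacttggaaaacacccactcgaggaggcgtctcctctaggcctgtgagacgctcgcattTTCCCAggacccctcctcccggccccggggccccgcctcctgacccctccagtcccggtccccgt

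All 10 members matched a RefSeq promoter by symbol, through 12 entries of 300 bases (250 before the start and 50 after it), since Dll1 and Rbpj have 2 starts each. The members lie on chromosomes 2 (Notch1, Dll4 and Jag1), 3 (Notch2), 5 (Rbpj), 7 (Dll3), 12 (Jag2) and 17 (Notch3, Notch4 and Dll1). AAGTTT, counted on both strands, occurred in 14.4% of 32851 RefSeq promoters and in 1 of the 12 member entries, that of Notch2. That entry held it 2 times, as AAACTT from base -9 to -4 before the start and again from base 3 to 8 after it. TGGGAA occurred in 25.6% of promoters and, among members, only in both Rbpj entries; the printed one holds it 2 times, from base -149 to -144 and, as TTCCCA, from -65 to -60. An E-box occurred in 72.3% of promoters and in 6 of the 12 member entries, from 5 of 10 genes (Notch4, Dll1, Dll3, Jag1 and Rbpj). GGGCGG, a GC box, occurred in 35.7% of promoters and in 7 of the 12 member entries, from 7 of 10 genes. Notch2 held 7 matches, and Notch1 and Jag2 held 5 each. CCAAT occurred in 37.4% of promoters and in 3 of the 12 member entries, 1 for each Delta ligand gene. TATAAA occurred in 13.6% of promoters and in no member. CpG content varied widely among the members. Jag2 held 63 CpG at 86.0% G+C, more CpG than 99.97% of all promoters, and Notch2 held 41 at 73.0%, while Notch4 was the poorest with 5 at 58.3%. These matches describe letters in the sequence, not binding.

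The comparison asked whether ST18 reads exceeded input reads at the members' promoters. The ST18 column held 438960 reads over all windows and the input column 160443, with medians of 20 and 7 reads per window. Windows without reads in either column are kept in the shares of all windows given below, with a deposited log2 of 0. Log2 enrichment is the authors' deposited measure, recomputed here from the counts: the log2 of (ST18 reads times 0.4055, plus 16) over (input reads plus 16). Beside it stands the fold, which is the ST18 to input ratio of a window divided by the same ratio summed over all promoters; its 95% interval is exact binomial (Clopper-Pearson). These intervals cover counting error only, because neither column has a replicate. They also take each read as a separate molecule, although PCR copies of 1 molecule cannot be told apart here. The log2 value is pulled towards 0 by the added 16 reads and its zero point is set by the deposited scaling, so a log2 of 0 is not the same point as a fold of 1.

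No member promoter could be told from the ratio of all promoters at this depth. The log2 enrichment of the 10 members ran from −0.02 (Rbpj) to 0.34 (Notch4), with a median of 0.19, against a median of 0.04 and a middle 50% of −0.10 to 0.19 over all windows. No member reached 0.58 in either direction (1.49-fold on this scale), a threshold that 1.37% of all windows passed, 1.15% upwards and 0.219% downwards. A threshold of 0.3 was passed by 3 of 10 members, Notch4, Jag1 and Dll1, all upwards, and by 18.3% of all windows, 2745 of them upwards. No member was as low as −0.3, against 5.74% of windows. The exact 95% interval of the fold included 1 for all 10 members, and 5.61% of all windows had an interval without 1. In the exact two-sided binomial test with Benjamini-Hochberg adjustment over all windows, which compares the reads of the deposited columns and not conditions, 0 of 10 members were called, against 0.0457% of all windows. At an unadjusted p under 0.05 there were also 0 of 10, against 1505 of 21881 windows over the whole table.

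**Figure D1:**
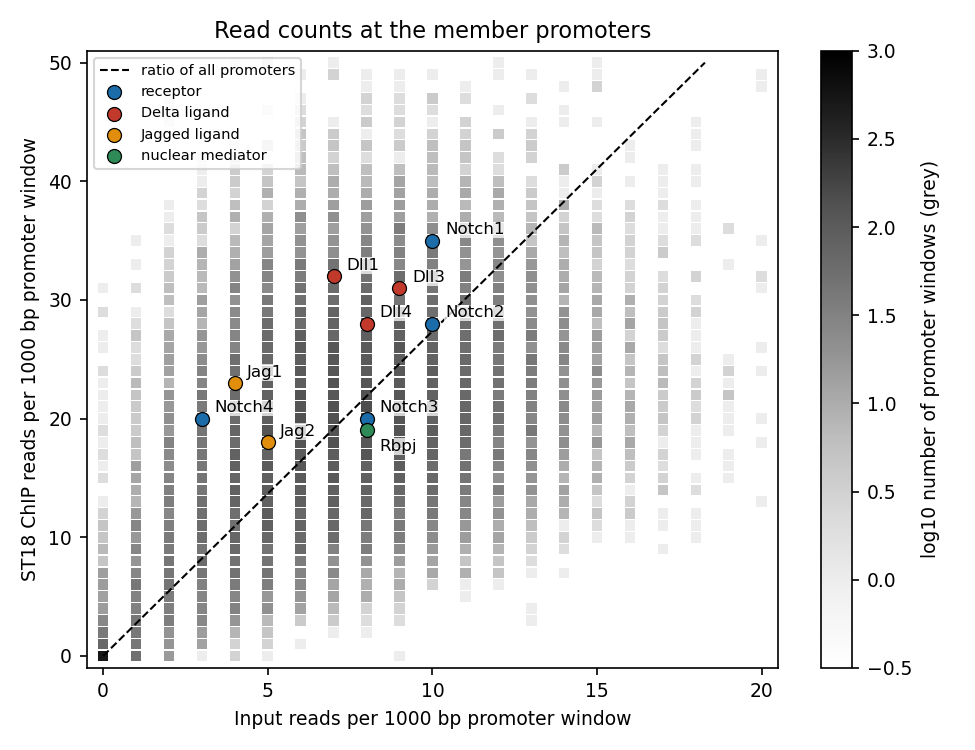
Input reads (horizontal) and ST18 ChIP reads (vertical) in each member's 1000 bp promoter window, coloured by role, over all windows with up to 20 input and 50 ST18 reads (grey, log10 number of windows). The dashed line is the ratio of all promoters. Above it lie 8 of the 10 members, against 49.2% of all windows, and Notch3 and Rbpj lie just below it at 8 input reads each.

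The receptors spanned almost the whole range of the members. Notch4, a receptor best known from blood vessels, held 20 reads in the ST18 column and 3 in the input column (log2 0.34, fold 2.44, 0.723 to 12.8). Its ST18 count equalled the median of all windows, whereas its input count was low, with more input reads in 85.5% of windows. Notch1, the main receptor of cortical radial glia, was the opposite case: it held 35 ST18 reads against 10 input reads (log2 0.22, fold 1.28, 0.620 to 2.90). Only 4.05% of windows had more ST18 reads than Notch1, but its input count was also high, with more in 17.9% of windows. Notch2, also present in radial glia, held 28 against 10 reads (log2 0.07, fold 1.02, 0.483 to 2.36). Notch3, known from vascular smooth muscle and also found in progenitors, held 20 against 8 reads (log2 0.01, fold 0.914, 0.386 to 2.40). Notch3 and Notch4 thus had the same ST18 count and differed in input alone. Summed over the 4 receptors, 103 ST18 reads stood against 31 input reads, a fold of 1.21 (0.806 to 1.88). Notch2, the member with AAGTTT in its promoter, ranked 8th of the 10 members by log2 enrichment.

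All 3 Delta ligand promoters held high read counts in the ST18 column. Dll1, the ligand of newly committed neuronal precursors, held 32 ST18 reads against 7 input reads (log2 0.33, fold 1.67, 0.724 to 4.49), and 7.55% of windows had more ST18 reads. Its input count equalled the median of all windows. Dll3, a divergent ligand that acts inside the cell to dampen Notch, held 31 against 9 reads (log2 0.19, fold 1.26, 0.585 to 3.01), with more ST18 reads in 9.35% of windows. Its input count was above the median too, with more in 25.7% of windows. Dll4, best known from sprouting vessels, held 28 against 8 reads (log2 0.19, fold 1.28, 0.568 to 3.25), with more ST18 reads in 16.3% of windows. More input reads than at Dll4 stood in 35.6% of windows. Among the members, Notch1 and Dll4 have a neighbouring gene with a RefSeq start within 1000 bp. The neighbour of Notch1, Gm35978, is not among the counted windows. That of Dll4, Gm14207, is counted, so its window and that of Dll4 may share reads. That neighbour lay on the other side of 0, with 14 against 12 reads and a log2 of −0.37, and was singled out after its values were seen. Summed over the Delta ligands, 91 reads stood against 24, a fold of 1.39 (0.876 to 2.27).

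The Jagged ligand promoters had fewer reads in both columns than the Delta ligand promoters. Jag1, a ligand with roles in progenitor maintenance and in vessels, held 23 ST18 reads against 4 input reads (log2 0.34, fold 2.10, 0.718 to 8.36). As at Notch4, the input count was the unusual one: 78.2% of windows had more input reads, and 34.4% had more ST18 reads. Jag2 held 18 against 5 reads (log2 0.15, fold 1.32, 0.471 to 4.53). Together they held 41 against 9 reads, a fold of 1.67 (0.797 to 3.90). Over all 5 ligands, 132 reads stood against 33, a fold of 1.46 (0.992 to 2.21).

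Rbpj, the DNA-binding partner of every Notch intracellular domain, was the lowest member. Its window held 19 reads in the ST18 column and 8 in the input column (log2 −0.02, fold 0.868, 0.363 to 2.29). Both counts were close to the medians of all windows. Its tissue-restricted paralog Rbpjl, which is not a member, held 32 against 6 reads (log2 0.40, fold 1.95, 0.804 to 5.70).

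**Figure D2:**
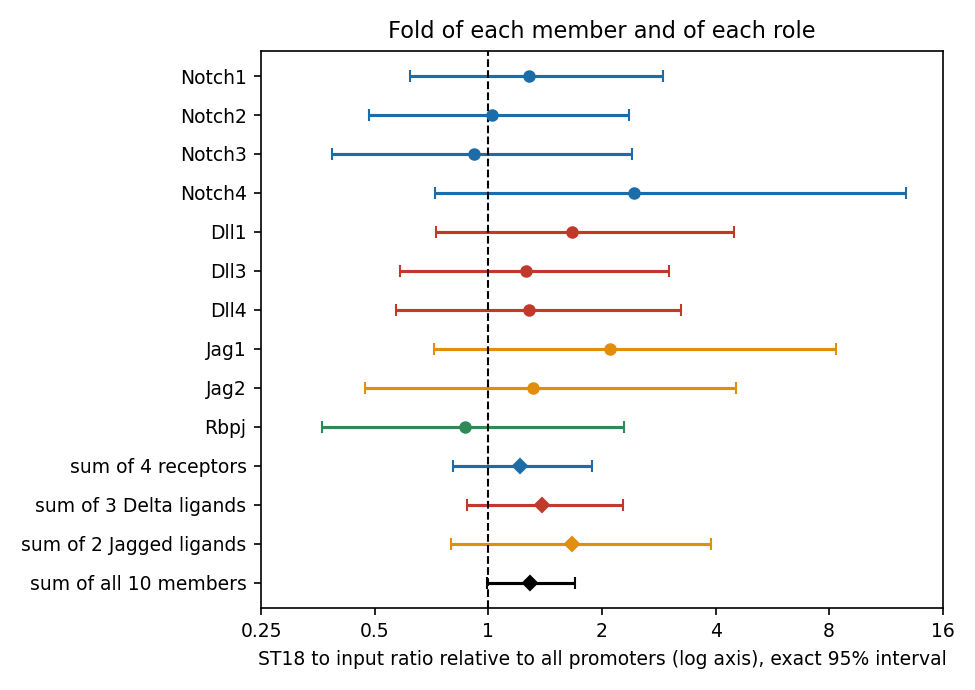
ST18 to input ratio relative to all promoters (horizontal, log axis) for each member and for the summed reads of each role, with exact 95% intervals; the dashed line marks a fold of 1. Every interval crosses that line, and the interval of Notch4 (0.723 to 12.8) is the widest among members because it rests on 3 input reads.

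Ordered by log2 enrichment, the members were Notch4, Jag1, Dll1, Notch1, Dll3, Dll4, Jag2, Notch2, Notch3 and Rbpj. The order was not resolved at this depth. The ratio of the highest member to the lowest, Notch4 to Rbpj, was 2.75 with an exact conditional 95% interval of 0.553 to 18.5, and the interval of such a ratio included 1 in 45 of 45 pairs of members. The counts were also common ones: 37 other windows had exactly the counts of Notch4, and 122 had those of Rbpj. Of the pathway genes considered here, only Dner shared its counts with a member, Dll1. By the fold, which the added reads do not compress, Notch4 ranked 1185 among the windows with reads. For that rank, windows with ST18 reads but no input reads were given 3 input reads. By log2 enrichment Notch4 ranked 2027 of 21881 windows.

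The reads limited what could be seen. With the 45 reads of Notch1, the most of any member, the interval would exclude 1 only from a fold of 2.92 (40 against 5 reads) upwards. With the 23 reads of Notch4 and of Jag2 it would need a fold of 8.04 (22 against 1 reads). An observed fold of 2 would therefore not have given an interval without 1 at any single member. How often a true 2-fold excess would have been seen was not computed. Summed over all 10 members, 254 ST18 reads stood against 72 input reads, a fold of 1.29 (0.989 to 1.70), so the upper bound for the members together was 1.70-fold. The St18 promoter itself held 21 against 7 reads (log2 0.09, fold 1.10, 0.449 to 3.05).

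The rest of the pathway was taken from a list of 49 genes by role, all of them in the table. None reached 0.58 in either direction and the exact test called 0 of 49, with 7 at an unadjusted p under 0.05 (1505 of 21881 windows over the whole table). The list's median log2 enrichment was 0.12 and its summed fold 1.11 (0.989 to 1.26). At 0.3 in either direction 16 of 49 genes passed, 11 upwards and 5 downwards, against the 18.3% of all windows.

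**Figure D3:**
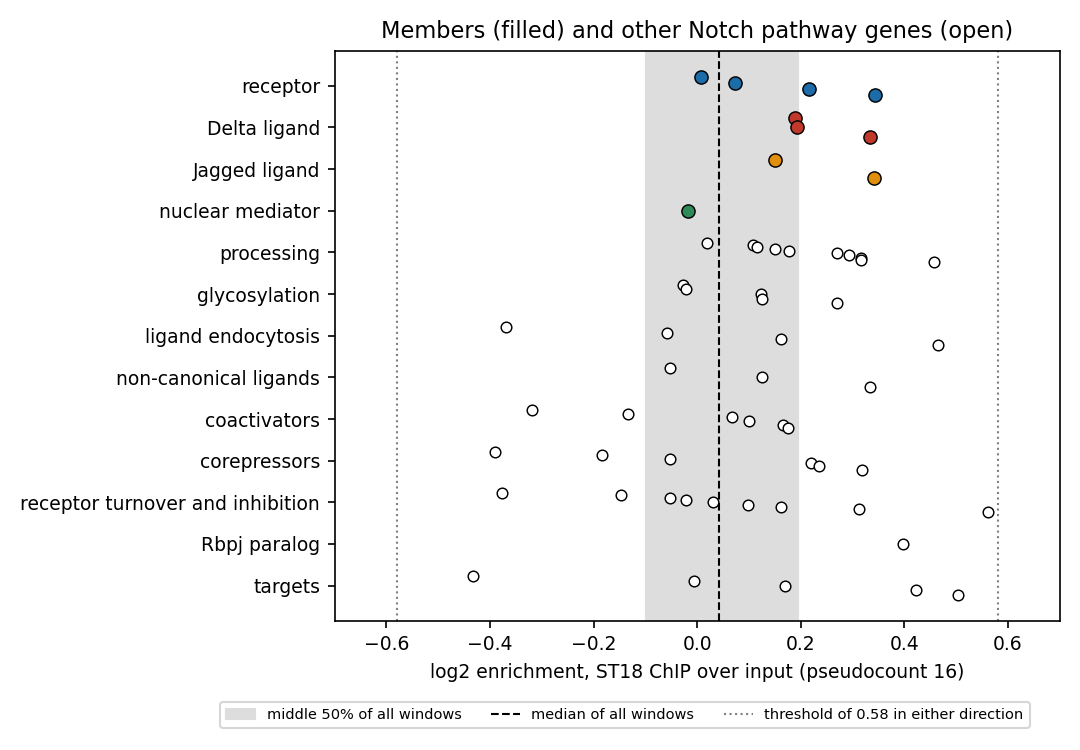
Log2 enrichment (horizontal) of the 10 members (filled, by role) and of 49 other Notch pathway genes (open, by role); the grey band is the middle 50% of all windows, −0.10 to 0.19, and the dashed line their median, 0.04. The 10 members lie between −0.02 and 0.34 and the 49 other genes between −0.43 and 0.56, but a range widens with the number of genes.

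All 10 genes of proteolytic processing, which mature and cut the receptor, had a log2 above 0 as deposited (57.1% of all windows did). When scaled to the totals 9 of 10 did (49.2% of all windows), and when centred 9 of 10 did (49.6%). Their median log2 was 0.22 and their summed fold 1.42 (1.08 to 1.90). This was the only one of the 9 roles whose summed interval left out 1, but the interval of each of the 10 genes alone included 1. The summed interval covers counting error only, not the spread between promoters, and is not corrected for the number of roles. Psen2, a catalytic γ-secretase subunit, was highest at 0.46 (35 against 6 reads). The subunit genes Aph1b and Aph1c are close copies of each other whose reads may be split between them. Among genes for receptor glycosylation the highest was Lfng, the lunatic fringe enzyme, at 0.27 and the lowest Mfng at −0.03.

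The next roles were ligand endocytosis and the non-canonical ligands. Of the genes for ligand endocytosis, Neurl1a was highest at 0.46 (32 against 5 reads) and Mib1, the ubiquitin ligase that activates Delta ligands, lowest at −0.37 (14 against 12). The interval of the fold included 1 for both, at 0.905 to 7.69 for Neurl1a and 0.183 to 1.01 for Mib1. Of the non-canonical ligands, Dner stood at 0.33 and Dlk2 at −0.05.

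Nuclear partners of Rbpj were grouped as coactivators and corepressors. Among coactivators (median 0.08) Snw1 was highest at 0.17 and the acetyltransferase gene Kat2b lowest at −0.32 (8 against 8 reads). Among corepressors (median 0.08) Spen, which represses Notch targets together with RBPJ, was highest at 0.32 and Ctbp2 lowest at −0.39 (17 against 14 reads).

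Inhibitors and targets gave the extremes of the list. Nrarp, a Notch target that feeds back on the intracellular domain, was the highest of the 49 at 0.56, with 37 reads against 5. Its fold was 2.70 (1.06 to 8.82), and the exact binomial test gave an adjusted p of 0.674. Within its role, receptor turnover and inhibition, the lowest was Numbl at −0.38 (8 against 9 reads). Among targets Hey1 was highest at 0.50 (27 against 3 reads) and Hes5 lowest of the 49 at −0.43, with 19 reads against 16. The fold of Hes5 was 0.434 (0.211 to 0.902) and its adjusted p by the exact binomial test 0.569. In 5 of the 49 genes, against 5.61% of all windows, the interval of the fold left out 1: Nrarp and Hey1 upwards, and Hes5, Ctbp2 and Numbl downwards.

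**Figure D4:**
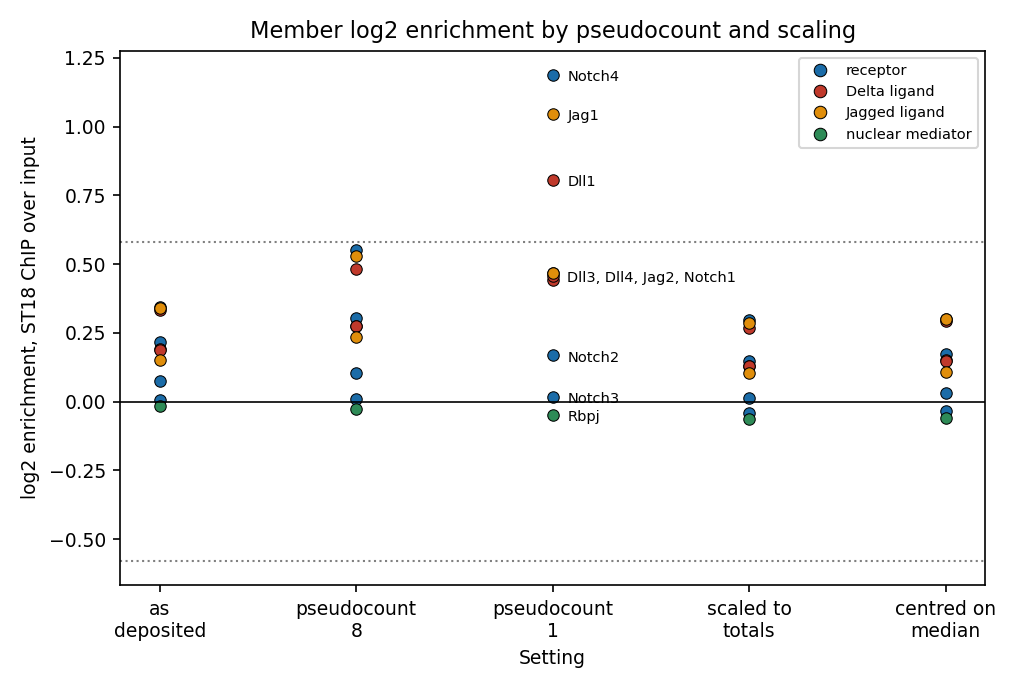
Log2 enrichment of the 10 members (vertical) as deposited, with a pseudocount of 8 or 1, with ST18 scaled to the totals of all promoter windows, and centred on the median window; dotted lines mark 0.58 in either direction. Notch4, Jag1 and Dll1 are the highest and Rbpj the lowest in each setting, and only with a pseudocount of 1 do those 3 pass 0.58.

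Which members stood at 0.3 changed with the setting. With a pseudocount of 8, Notch1 joined Notch4, Jag1 and Dll1 (4 of 10, against 25.2% of all windows), and with a pseudocount of 1 there were 7 of 10 (40.2%), all but Notch2, Notch3 and Rbpj. With the ST18 column scaled to the totals of all promoter windows, none of the 10 stood at 0.3 (8.46% of all windows did), and Notch3 joined Rbpj below 0. Centred on the median window, Notch4 passed at 0.302 and Jag1 missed at 0.299 (9.45% of windows passed). Among the 7 members with more than 5 input reads, Dll1 alone stood at 0.3 or above (6.93% of such windows). Notch4, Jag1 and Jag2 are outside that comparison, having 3, 4 and 5 input reads.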

How the data were processed

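The authors deposited raw read counts in promoter windows of 1000 bp for 1 ST18 ChIP column and 1 input column, with a log2 enrichment beside them. Per the submitters' processing notes, the series used build mm9, MACS2 2.0.10.20120913, Bowtie, edgeR, HTSeq 0.5.4p1 and TopHat2 2.0.8. Which of them made this table, where the window lies and whether duplicates were removed could not be read from the labels or headers. All 21881 deposited log2 values were recomputed from the counts within 1e-06. ST18 totals were 438960 reads and input totals 160443.

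The 10 members, the pathway list, the thresholds and the tests were chosen with earlier results of these data known. Named were all members and, of the pathway list, the highest and lowest gene of each role and any past 0.58; 1 item this rule would name is not reported here. Intervals and exact binomial tests used SciPy 1.17.1, with Benjamini-Hochberg adjustment over all windows. The test was checked only on counts simulated from the binomial model it assumes, so that check cannot speak to PCR copies or extra spread. Sequences are from RefSeq (GRCm38.p6). A split of all windows by CpG or motif was void, since 16573 of 21881 (75.7%) had a RefSeq promoter. The deposited peak list was not used, because its mm9 positions could not be set against genes here.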

Additional observations from a re-analysis of the deposited data

How the results depend on the processing

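All alternatives were planned. The 0 members past 0.58 in either direction became 3 at a threshold of 0.3 (18.3% of all windows) and 3 with a pseudocount of 1 (37.2%), and stayed 0 at a threshold of 1, with a pseudocount of 8, scaled to the totals, centred, and among windows of more than 5 input reads. The 0 other pathway genes became 16 at 0.3, 8 with a pseudocount of 8 (9.57% of all windows) and 21 with a pseudocount of 1, and stayed 0 in the other 4 settings. The members' median of 0.19 became 0.46 with a pseudocount of 1 (0.12 over all windows) and otherwise lay between 0.13 and 0.27. The changes with threshold and pseudocount follow from how those settings are built. So do the counts of 0 at a threshold of 1 and among windows of more than 5 input reads. The 47 values of single members include 7, from windows of more than 5 input reads, that equal the deposited ones by construction. Of the 47, 44 stayed within the exact interval of the member's read share, written on the log2 scale with 16 added reads. The others, with a pseudocount of 1, were Notch4 at 1.19 (interval −0.10 to 0.59), Jag1 at 1.05 (−0.11 to 0.63) and Dll1 at 0.80 (−0.13 to 0.69); that scale compresses the interval and not the value. The exact test called 0 members in all 3 of its alternatives. Leaving out the member with the most reads gave folds of 1.18 for receptors, 1.46 for Delta ligands and 1.32 for Jagged ligands. Leaving out a ChIP replicate was not possible with 1 ST18 column. No paired analysis was possible because the single ST18 column names no replicate, and the 8 RNA samples were not analysed here.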
